A study of Mus musculus with 4 samples.

Results

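Chil1, Chil3, Chil4, Chit1 and Chid1 are 5 mouse genes that encode chitinases and chitinase-like proteins, members of 1 glycoside hydrolase family. They were chosen by name, with their flagellin and genotype differences on these arrays already known, from 19938 genes measured in the mucosa of the mouse nasal septum and turbinates, and the probe set of each gene was selected on its mean signal over the 4 arrays, the highest among those of that gene alone. All 5 were matched, and each had 1 such probe set. Total RNA was measured on 4 arrays, 1 per group, in mice of 8 weeks. The groups were mice labelled Duox2-/- given flagellin, mice labelled Duox2-/- given PBS, wild-type mice given flagellin and wild-type mice given PBS. The labels give C56BL/6 as the strain of all 4 samples. Flagellin was used at 5 ug/ml with 25 ul per nostril, and exposure lasted 4 h. The sources used here do not state how the Duox2 allele was made, or whether 1 mouse or several went onto an array. With 1 array per group there is no spread between replicates, so every difference below is given without a test and with no error, and the number of arrays limits the precision of each value.

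Chitin is a polymer of N-acetylglucosamine found in fungal walls, insect cuticle and the shells of mites, and true chitinases cleave it. Chitinase-like proteins keep the fold and, in part, the sugar-binding groove but have lost the catalytic residue, so they bind without cutting. In mouse airways both kinds are secreted by epithelial cells, macrophages and neutrophils, and they are best known as products of type 2 inflammation. Flagellin, the subunit of bacterial flagella, activates Toll-like receptor signalling in epithelium. Duox2 makes hydrogen peroxide at the epithelial surface.

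Chil3 and Chil4 lie side by side on chromosome 3 and are close copies of each other, and their promoters are shown because the 2 genes nevertheless gave different patterns over the arrays. The stretches run from 250 bases before the annotated transcript start to the first 10 bases after it, on the minus strand of GRCm38.p6, at chr3:106167555-106167814 for Chil3 and chr3:106219470-106219729 for Chil4. Capitals mark the TATAAA motif. The sequences are from RefSeq.
Chil3: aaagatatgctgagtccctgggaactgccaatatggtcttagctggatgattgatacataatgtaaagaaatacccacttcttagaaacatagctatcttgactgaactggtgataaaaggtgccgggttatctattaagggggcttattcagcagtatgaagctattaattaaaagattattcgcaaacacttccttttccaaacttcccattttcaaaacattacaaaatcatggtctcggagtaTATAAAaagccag
Chil4: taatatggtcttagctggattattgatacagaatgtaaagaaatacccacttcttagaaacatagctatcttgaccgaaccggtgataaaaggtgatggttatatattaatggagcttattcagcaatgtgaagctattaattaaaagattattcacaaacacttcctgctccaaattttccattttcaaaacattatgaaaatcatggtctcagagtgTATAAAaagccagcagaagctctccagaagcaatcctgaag
Over 271 aligned bases of the full 300-base windows the promoters were 92.62% identical, with 2 gap positions inside the alignment. The Chil4 window is displaced by 28 bases, so that TATAAA begins 31 bases before the annotated start of Chil4 and 3 bases before that of Chil3. TATAAA was found on either strand in 13.616% of 32851 promoter windows of the same length.

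Chil1 is shown because its promoter window holds a match to the NF-kB consensus, the motif of a factor that acts downstream of Toll-like receptors. The stretch is on the plus strand at chr1:134181906-134182165, and capitals mark the match.
Chil1: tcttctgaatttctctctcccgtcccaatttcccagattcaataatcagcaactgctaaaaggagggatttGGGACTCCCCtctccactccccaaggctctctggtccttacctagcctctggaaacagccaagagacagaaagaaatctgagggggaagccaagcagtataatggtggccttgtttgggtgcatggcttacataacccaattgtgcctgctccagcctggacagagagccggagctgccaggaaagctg
This match begins 179 bases before the annotated start, and 8.459% of the promoter windows hold at least 1 match on either strand. No match to the NF-kB consensus was found in the windows of Chil3, Chil4, Chit1 or Chid1. The STAT6 motif TTCNNNNGAA, present in 6.953% of windows, had no match in any of the 5 genes. Only this spacing of 4 bases was searched, so sites with a shorter or longer spacing are not covered. The C/EBP motif TTGCNNAA, present in 10.797%, was found in Chil4 alone among them. None of the 4 motifs overlapped another in these windows. A match of letters is a description and not evidence of binding. Base composition set Chid1 apart: its 3 annotated starts had 25 to 27 CpG pairs per window, and the other 4 genes had 2 or 3, beside a median of 7 over all windows.

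Signals are RMA values on the log2 scale, so a difference of 1 is 2-fold. The median of all values, 6.52, was used as the level above which a gene was ranked, which 12471 genes reached in at least 1 array. Chil1, Chil4 and Chid1 were above it in all 4 arrays. Chil3 reached it only in the wild-type flagellin array, so it entered the ranked genes through the array in which it was highest. Chit1 stayed below it in all 4, and the sizes of its differences are therefore less certain. Levels of different probe sets are not comparable, and the order of levels is given within a gene only.

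The arrays differed in ways that reach beyond these genes. Olfactory neuron markers and ciliated cell markers, fixed lists of 8 genes each, were all above the median of all values in at least 1 array, as the tissue label requires. Skeletal muscle markers were at least 2-fold higher in the PBS array labelled Duox2-/- than in wild-type PBS for 9 of 10 genes, and all 6 squamous epithelium markers were at least 2-fold lower in the flagellin array labelled Duox2-/- than in wild-type flagellin. With flagellin, 7 of 10 muscle markers were at least 2-fold lower in the arrays labelled Duox2-/- and 5 of 10 at least 2-fold higher in wild type, with medians of -2.11 and 1.13. Of 9 nasal gland markers, 5 were at least 2-fold higher in the array labelled Duox2-/- than in wild type after flagellin and 3 under PBS, while Pip was lower under PBS, at -1.29. Genotype differences of the gland gene Bpifb9a were 4.68 after flagellin and 6.77 under PBS, and those of Bpifb9b were 4.18 and 6.57. In bulk mucosa, fewer cells of a type and less RNA per cell cannot be told apart. Duox2 itself was below the median of all values in every array, at 5.50 and 5.23 in the flagellin and PBS arrays labelled Duox2-/- and at 5.12 and 4.95 in the wild-type flagellin and PBS arrays. It was thus not lower in the arrays labelled Duox2-/-, and the position of its probe set relative to the alteration is not stated, so this value may check nothing about the labels.

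**Figure D1:**
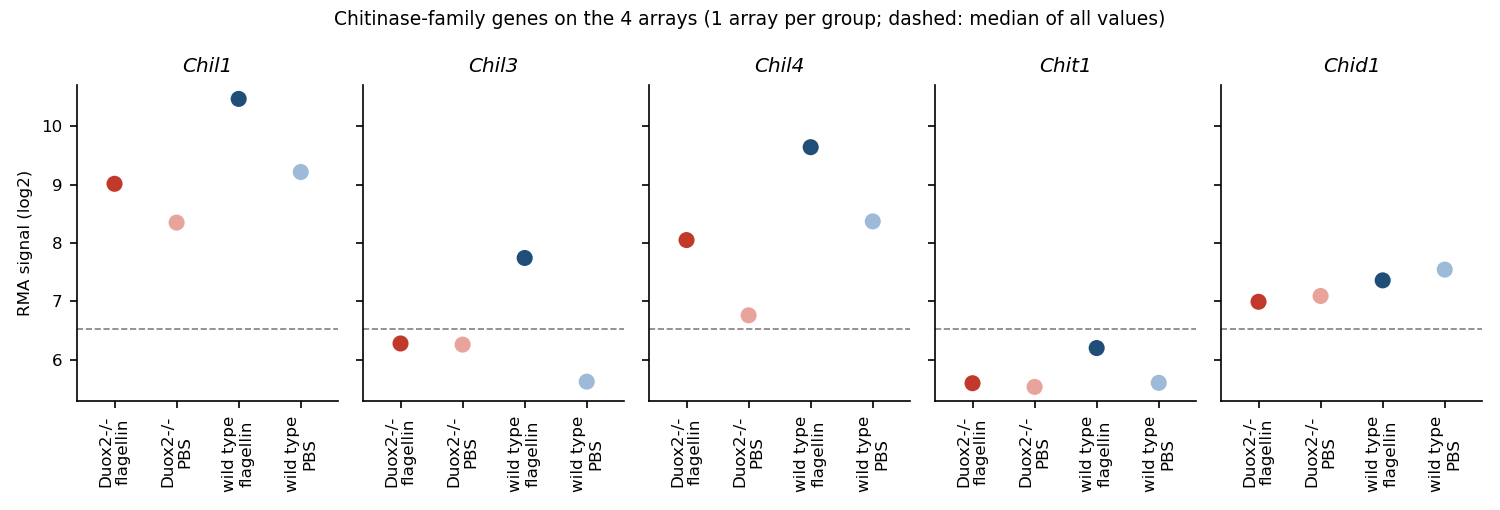
RMA signal on the log2 scale of each of the 5 genes on the 4 arrays, 1 point per array, with the median of all values as a dashed line. Chil1, Chil3, Chil4 and Chit1 are highest in the wild-type flagellin array, at 10.5, 7.74, 9.64 and 6.20, and Chid1 is highest in wild-type PBS at 7.54.

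Chil4, also called Ym2, is a chitinase-like protein made by airway epithelium in allergic inflammation. Its signal was 8.05 in the flagellin array labelled Duox2-/-, 6.76 in the PBS array labelled Duox2-/-, 9.64 in wild type with flagellin and 8.37 in the wild-type PBS array. Both flagellin arrays were above the PBS array of the same genotype, and both arrays labelled Duox2-/- were below both wild-type arrays. The flagellin response was 1.29 in the arrays labelled Duox2-/- and 1.27 in wild type, which corresponds to 2.44-fold and 2.41-fold. The response in the arrays labelled Duox2-/- exceeded that of wild type by 0.02, and by up to 0.13 under the other normalisations. The genotype difference was as even: the array labelled Duox2-/- was lower than wild type by a log2 difference of -1.59 after flagellin and of -1.61 under PBS, or 3.01-fold and 3.04-fold. Among the 12471 ranked genes Chil4 ranked 7 from the lowest for the difference between the PBS arrays, and 9 from the highest for the flagellin response in the arrays labelled Duox2-/-. Over the 4 arrays its signal spanned 2.88, the widest range of the 5 genes.

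Chil3, also called Ym1, is a chitinase-like protein of neutrophils and of alternatively activated macrophages. Its signal was 6.28 in the flagellin array labelled Duox2-/-, 6.26 in the PBS array labelled Duox2-/-, 7.74 in wild type with flagellin and 5.63 in the wild-type PBS array. The wild-type flagellin array stood above the other 3, which lay within 0.65 of each other. Those 3 values were below the median of all values, so differences among them are less certain. The flagellin response in the arrays labelled Duox2-/- was 0.02, a value so close to 0 that its sign turned under quantile renormalisation and cyclic loess. In wild type it was 2.12, or 4.33-fold. The first response minus the second was -2.10. No rank is given for Chil3, because it entered the ranked genes only through the wild-type flagellin array, which both of these values use. Against wild type, the array labelled Duox2-/- was lower after flagellin, at -1.46, and higher under PBS, at 0.63.

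Chil1, the mouse counterpart of human YKL-40 and known as BRP-39, is a chitinase-like protein of epithelial cells, macrophages and neutrophils. Its signal was 9.01 in the flagellin array labelled Duox2-/-, 8.35 in the PBS array labelled Duox2-/-, 10.5 in wild type with flagellin and 9.21 in the wild-type PBS array. As for Chil4, each flagellin array was above its PBS array and both arrays labelled Duox2-/- were below both wild-type arrays. The flagellin response was 0.66 in the arrays labelled Duox2-/- and 1.25 in wild type, or 1.58-fold and 2.38-fold. The first minus the second was -0.59 on the log2 scale. The array labelled Duox2-/- was lower than wild type in both treatments, with differences of -1.45 after flagellin and -0.86 under PBS.

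Chit1, chitotriosidase, is a true chitinase, in humans a product of activated macrophages. Its signal was 5.60 in the flagellin array labelled Duox2-/-, 5.54 in the PBS array labelled Duox2-/-, 6.20 in wild type with flagellin and 5.61 in the wild-type PBS array. The 3 lower values lay within 0.07 of each other and the wild-type flagellin array was above them. The flagellin response was 0.06 in the arrays labelled Duox2-/-, with the sign turned by cyclic loess, and 0.59 in wild type. Neither passed 2-fold, and the same was true of the genotype differences, -0.60 after flagellin and -0.07 under PBS. The PBS value moved to -0.16 with each array centred on its median, -0.26 after quantile renormalisation and -0.27 after cyclic loess, so the closeness of the 3 lower values holds for the deposited scale only.

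Chid1, the chitinase domain-containing protein that binds the scavenger receptor stabilin-1 and is sorted to lysosomes, had the narrowest range. Its signal was 6.99 in the flagellin array labelled Duox2-/-, 7.09 in the PBS array labelled Duox2-/-, 7.36 in wild type with flagellin and 7.54 in the wild-type PBS array. Flagellin arrays were slightly below PBS arrays in both genotypes, with differences of -0.10 in the arrays labelled Duox2-/-, which was -0.04 after cyclic loess, and -0.18 in wild type. The arrays labelled Duox2-/- were below wild type, at -0.37 after flagellin and -0.45 under PBS.

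**Figure D2:**
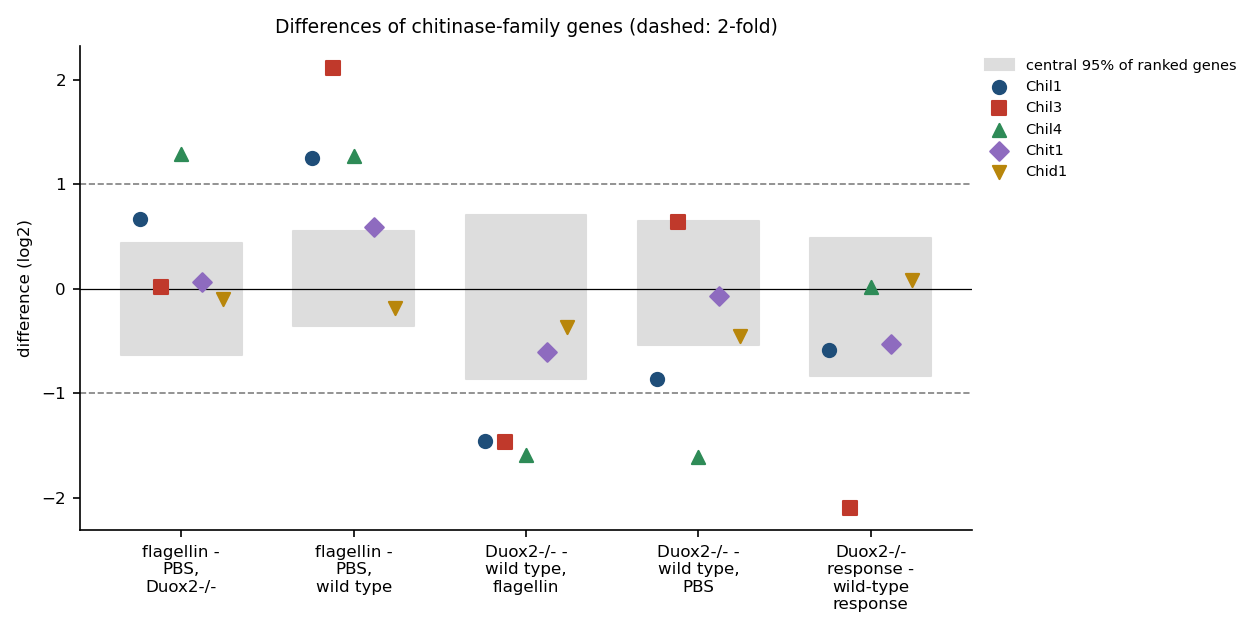
Differences of log2 signal for the 5 genes in the 5 comparisons, 1 point per gene, over grey boxes that span the central 95% of the 12471 ranked genes, with 2-fold as dashed lines. For flagellin minus PBS, Chil4 sits at 1.29 in the arrays labelled Duox2-/- and 1.27 in wild type, while Chil3 sits at 0.02 and 2.12 in the same order.

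By count, flagellin against PBS in the arrays labelled Duox2-/- put 1 of the 5 genes, Chil4, at least 2-fold higher, where 0.176% of ranked genes passed in that direction. The median of the 5 was 0.06, beside -0.07 over all ranked genes. Here and below the medians of the 5 include Chit1, which was not ranked, so the 2 sets are unlike. The value of 0.06 is that of Chit1 itself. In wild type 3 of the 5, Chil1, Chil3 and Chil4, were at least 2-fold higher, against 0.922% of ranked genes, with a median of 1.25 over the 5 and of 0.00 over all ranked genes. Between the flagellin arrays the same 3 genes were at least 2-fold lower in the array labelled Duox2-/- than in wild type, against 1.65% of ranked genes, and all 5 genes were below 0. Most ranked genes were below 0 here too, since only 4137 of 12471 were above it. The median of the 5 was -1.45, beside -0.12 over all ranked genes. Between the PBS arrays only Chil4 was at least 2-fold lower in the array labelled Duox2-/-, against 0.281% of ranked genes, and the median of the 5 was -0.45 beside -0.04 over all. For the difference between the responses only Chil3 was past 2-fold, against 1.44% of ranked genes that were lower by this size. The genes were chosen with these values known, and the comparisons share arrays, so the counts describe the 4 arrays and nothing is read from their excess over the share of ranked genes.

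The remaining genes of the family were also measured; Chia1, Chil5 and Chil6 lie in the chromosome 3 cluster with Chil3 and Chil4, and Ctbs lies elsewhere on that chromosome. Chia1, the acidic mammalian chitinase, had a flagellin response of 0.21 in the arrays labelled Duox2-/- and 0.15 in wild type. Chil6, a chitinase-like gene known as BYm, had signals of 10.98, 10.98, 11.2 and 11.2 in the flagellin and PBS arrays labelled Duox2-/- and the wild-type flagellin and PBS arrays, with a span of 0.23. Chil5 was below the median of all values in every array, and its signal spanned 0.24. Ctbs, the lysosomal chitobiase that trims the sugar chains of glycoproteins, spanned 0.35. None of these 4 genes passed 2-fold in any of the 5 comparisons. The Ovgp1 probe set is shared with Wdr77 and was not used here.

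The chromosome 3 cluster runs from Ovgp1 to Chil6 over 432 kb of GRCm38.p6. Its 6 genes with a probe set of their own are, in order, Pifo, Chil5, Chia1, Chil3, Chil4 and Chil6. Chil3 occupies chr3:106147554-106167564 and Chil4 chr3:106201491-106219479, with 33.9 kb between them. Only these 2 adjacent genes were past 2-fold in any comparison among the 6. Pifo, a gene of primary cilia and no family member, had flagellin responses of 0.32 in the arrays labelled Duox2-/- and -0.01 in wild type. On chromosome 1, Chit1 at chr1:134111242-134151541 and Chil1 at chr1:134182156-134190031 are neighbours 30.6 kb apart, and both had the larger flagellin response in wild type. Chid1 is alone at chr7:141493136-141539905. Since Chil3 and Chil4 are near-identical copies, some probes may bind both transcripts. Probe sequences were not used here, so how well the signals separate the genes was not tested. Between the arrays labelled Duox2-/-, flagellin against PBS gave 1.29 for Chil4 and 0.02 for Chil3. Both Chil3 signals there were below the median of all values, so this contrast does not show whether either probe set is specific.

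**Figure D3:**
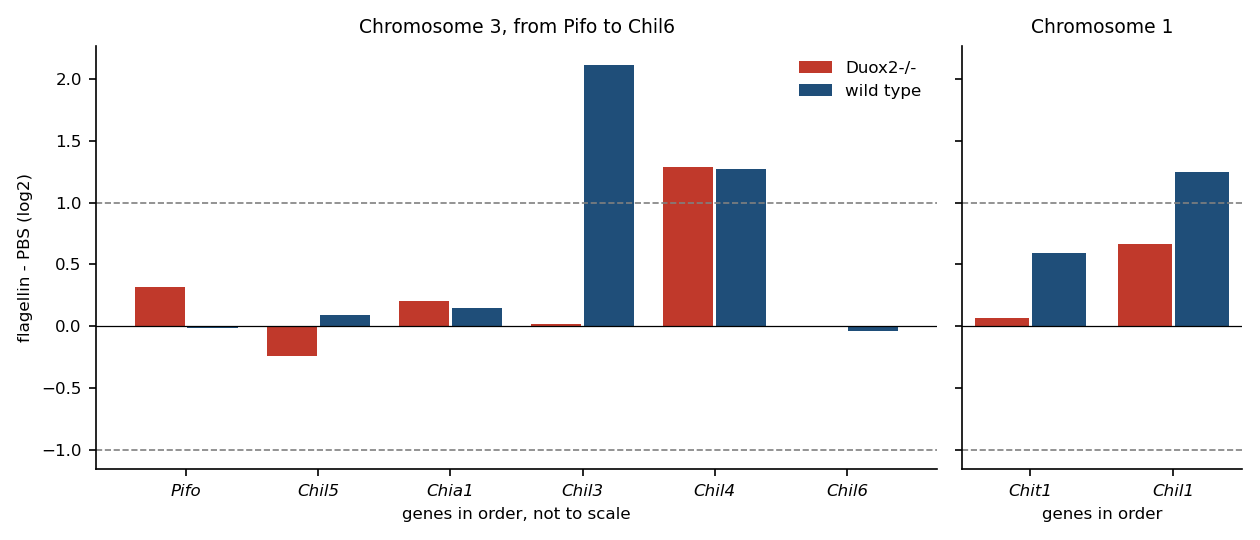
Flagellin minus PBS on the log2 scale for the genes of the chromosome 3 cluster and the chromosome 1 pair, in chromosomal order and not to scale, with 1 bar for the arrays labelled Duox2-/- and 1 for wild type. Chil3 and Chil4 stand beside Chia1 and Chil6, whose bars lie between -0.04 and 0.21.

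Because Chil3 is a product of myeloid cells, the markers of those cells are set beside it. Of 13 neutrophil markers, 0 were at least 2-fold higher with flagellin in the arrays labelled Duox2-/- and 8 in wild type, with medians of 0.21 and 1.14. The granule gene Ngp had a response of -0.16 in the arrays labelled Duox2-/- and 2.97 in wild type, and S100a8, part of calprotectin, of 0.45 and 1.83 in the same order. The lowest responses of the list in wild type were those of Mmp9, at -0.26 and -0.06 in this order, and Ltf, at -0.76 and -0.0018. Mmp8, at 1.86 in wild type, was below the median of all values in each array. The neutrophil surface gene Ly6g, below the median of all values in each array, was at -0.09 in the arrays labelled Duox2-/- and at 1.14 in wild type. After flagellin 2 of 13 neutrophil markers were above 0 in the array labelled Duox2-/- relative to wild type, with a median of -0.55, and Chil3 was at -1.46. Under PBS 12 of 13 were above 0, with a median of 0.47, and Chil3 was at 0.63. The log2 of the summed neutrophil signal was 12.2, 12.8, 12.9 and 12.8 in the flagellin and PBS arrays labelled Duox2-/- and the wild-type flagellin and PBS arrays, a sum dominated by Ltf, which glands also make. In this and the sums below, genes with higher signals weigh more, although levels of different probe sets are not comparable. RMA values have no 0, and the lowest neutrophil marker value was 4.01. A higher signal with flagellin in wild type and not in the arrays labelled Duox2-/- was also seen outside the myeloid lists. Of 6 squamous markers, 0 were at least 2-fold higher with flagellin in the arrays labelled Duox2-/- and 3 in wild type, with medians of -0.40 and 1.19, and the skeletal muscle medians of -2.11 and 1.13 differed in sign as well. The log2 of the summed squamous signal was 8.43 and 8.83 in the flagellin and PBS arrays labelled Duox2-/- and 10.5 and 9.31 in the wild-type flagellin and PBS arrays, and that of muscle was 9.26, 11.4, 10.3 and 8.77 in the same order. The part of any of these cells in the Chil3 values was not tested.

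Of 11 monocyte and macrophage markers, 3 were above 0 with flagellin in the arrays labelled Duox2-/- and 11 in wild type, with medians of -0.38 and 0.35. The chemokine receptor Ccr2 was at -0.63 in the arrays labelled Duox2-/- and at 1.24 in wild type, the only response of the list past 2-fold. The log2 of the summed signal was 10.6, 10.7, 11.3 and 11.0 in the same order of arrays, and the lowest single value was 5.08. Lyz2 had the highest signal of the list in each array, and its response in the arrays labelled Duox2-/- was 0.78. Of 6 eosinophil markers, 0 were at least 2-fold higher with flagellin in the arrays labelled Duox2-/- and 3 in wild type, where Prg2 was at 2.52, Ear6 at 1.60 and Epx at 1.08. Ear6 and Epx were below the median of all values in each array. The lowest responses in wild type were 0.07 for Il5ra and 0.09 for Ccr3, which were below that median in each array too. The summed eosinophil signal was 8.50, 8.23, 8.86 and 7.66 in the same order, with a lowest single value of 4.00. The part of either cell type in the values of Chil1, Chil3 and Chit1 was not tested.

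**Figure D4:**
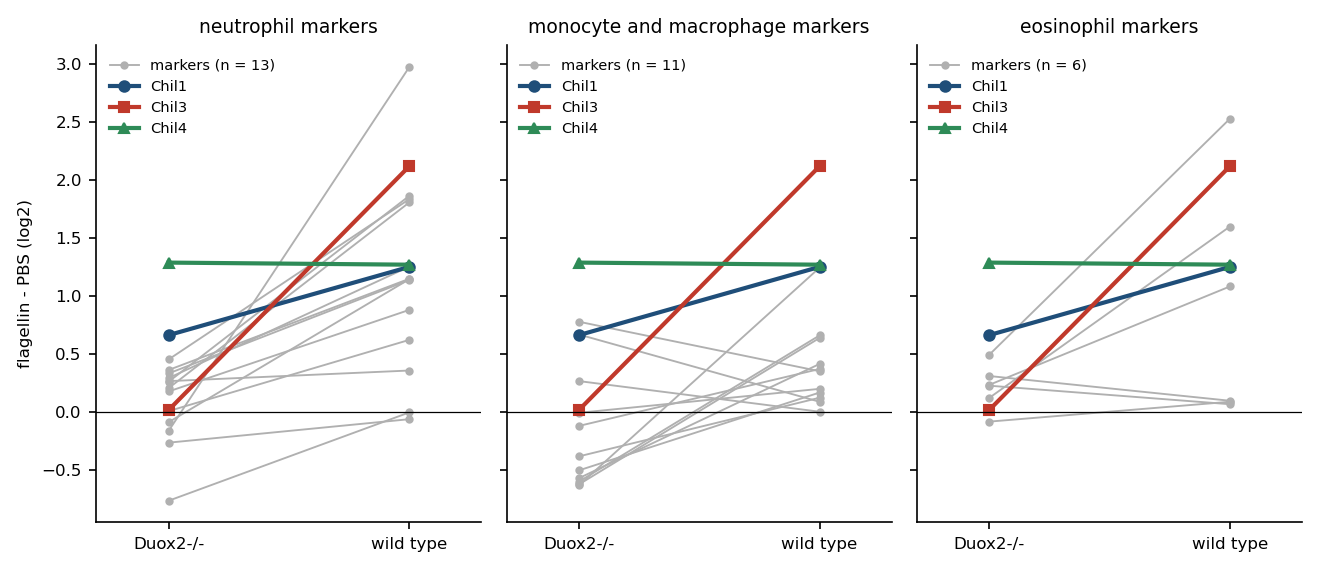
Flagellin minus PBS on the log2 scale in the arrays labelled Duox2-/- and in wild type for 13 neutrophil, 11 monocyte and macrophage and 6 eosinophil markers, each a grey line, with Chil1, Chil3 and Chil4 drawn over them. The Chil4 line is level at 1.29 and 1.27, while that of Chil3 climbs to 2.12 in wild type, as do lines of several neutrophil and eosinophil markers.

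Epithelial markers are set beside Chil4 and Chil1, which epithelium makes. Of 10 secretory and goblet cell markers, 0 were past 2-fold with flagellin in either genotype, with medians of 0.11 in the arrays labelled Duox2-/- and -0.01 in wild type. For the array labelled Duox2-/- against wild type their median was -0.21 after flagellin and -0.22 under PBS. After flagellin Muc5ac was at -1.33, and Scgb1a1, below the median of all values in each array, was at 1.07. Under PBS the lowest was -0.86 for Lypd2. The log2 of the summed signal was 14.3 in both arrays labelled Duox2-/-, 14.5 in wild-type flagellin and 14.6 in wild-type PBS. Basal cell markers were lower in the arrays labelled Duox2-/- than in wild type for 5 of 5 genes in each treatment, with medians of -1.36 after flagellin and -0.69 under PBS. Over all ranked genes the medians were -0.12 and -0.04 in the same order. The basal keratin gene Krt5 was at -2.29 after flagellin and -1.02 under PBS. The summed basal signal was 9.82 and 10.6 in the flagellin and PBS arrays labelled Duox2-/- and 11.5 and 11.4 in the wild-type flagellin and PBS arrays. Sustentacular cell markers, of the support cells of the olfactory epithelium, had a median of -0.06 after flagellin and -0.39 under PBS. Whether the share of any of these cells accounts for the lower Chil1 and Chil4 values was not tested.

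Chil1, Chil3 and Chil4 are textbook products of type 2 immunity, so genes of that response were set beside them. Of 11 genes for type 2 cytokines, their sensors and signalling, 0 were past 2-fold with flagellin in either genotype. Just 5 of the 11 reached the median of all values in at least 1 array, so the lack of change in the others is less certain. Il13 had signals of 6.46, 6.11, 6.12 and 5.97 and Il4 of 5.39, 5.41, 5.13 and 5.04 in the flagellin and PBS arrays labelled Duox2-/- and the wild-type flagellin and PBS arrays, all below the median of all values. Stat6, the factor that relays both cytokines, was at -0.83 after flagellin and -0.33 under PBS in the array labelled Duox2-/- relative to wild type. Gata3, below the median of all values in each array, was at -1.18 for the difference between the responses. No other gene of this list passed 2-fold in any comparison. Of 14 genes induced in type 2 responses, 0 were past 2-fold with flagellin in either genotype, with medians of 0.04 in the arrays labelled Duox2-/- and 0.12 in wild type. Only 2 of the 14, Mrc1 and Alox15, reached the median of all values. Mrc1 was at -1.03 in the array labelled Duox2-/- against wild type after flagellin, and no other gene of the 14 passed 2-fold in any comparison. Arg1, an enzyme of alternatively activated macrophages, had responses of 0.14 in the arrays labelled Duox2-/- and 0.53 in wild type, and Retnla of -0.43 and 0.54.

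Sensors of chitin and binding partners of chitinase-like proteins differed little between flagellin and PBS. Of 11 such genes 0 passed 2-fold in either genotype, with medians of -0.02 in the arrays labelled Duox2-/- and 0.06 in wild type. Clec7a, the receptor for fungal glucans that also takes part in chitin sensing, was at -0.08 in the arrays labelled Duox2-/- and at 0.60 in wild type. It was the only one of them past 2-fold in any pairwise comparison, at -1.05 in the array labelled Duox2-/- against wild type after flagellin. Il13ra2, a receptor reported for Chil1, was dim at 3.41 to 3.54 in all 4 arrays, and its co-receptor Tmem219 lay between 7.43 and 7.58. Stab1, the partner of Chid1, was at -0.48 after flagellin and -0.04 under PBS in the array labelled Duox2-/- against wild type.

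Enzymes that break down chitin and N-acetylglucosamine, 11 genes with Chit1 and Chia1 among them, had 0 past 2-fold in any of the 5 comparisons. Hexa, a subunit of the lysosomal hexosaminidases, had a flagellin response of -0.21 in the arrays labelled Duox2-/- and 0.00 in wild type. Of 14 genes for lysosomal proteins, 2 were above 0 with flagellin in the arrays labelled Duox2-/- and 10 in wild type, with medians of -0.22 and 0.05. For the array labelled Duox2-/- against wild type after flagellin, 13 of 14 were below 0 with a median of -0.38, beside -0.37 for Chid1.

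Likeness of pattern was measured as the Euclidean distance over the 4 arrays after each gene was centred on its own mean, among 387 other ranked genes whose signal spanned at least 1. Since 4 points describe a pattern loosely, the nearest genes are a description. Nearest to Chil1 were Il1f9, an epithelial interleukin of the interleukin-36 group, at a distance of 0.33, Kcne3, a potassium channel subunit, at 0.33, Slc6a14, an amino acid transporter, at 0.33, Slc7a11, the cystine transporter, at 0.41 and Cxcl5, a chemokine for neutrophils, at 0.42. Nearest to Chil3 were Lor, a protein of the cornified envelope, at 0.41, D17H6S56E-5 at 0.51, the complement gene Cfb at 0.63, S100a8 at 0.64 and the chemokine gene Ccl20 at 0.68. Nearest to Chil4 were the acute phase gene Serpina3n at 0.43, Chil1 at 0.62, Cd14, a co-receptor for bacterial lipids, at 0.73, the platelet chemokine gene Ppbp at 0.80 and Il1f9 at 0.83. Serpina3n had signals of 10.4, 9.26, 11.6 and 10.9 in the flagellin and PBS arrays labelled Duox2-/- and the wild-type flagellin and PBS arrays. Like Chil4 it was lower in both arrays labelled Duox2-/-, at -1.26 after flagellin and -1.63 under PBS.

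**Figure D5:**
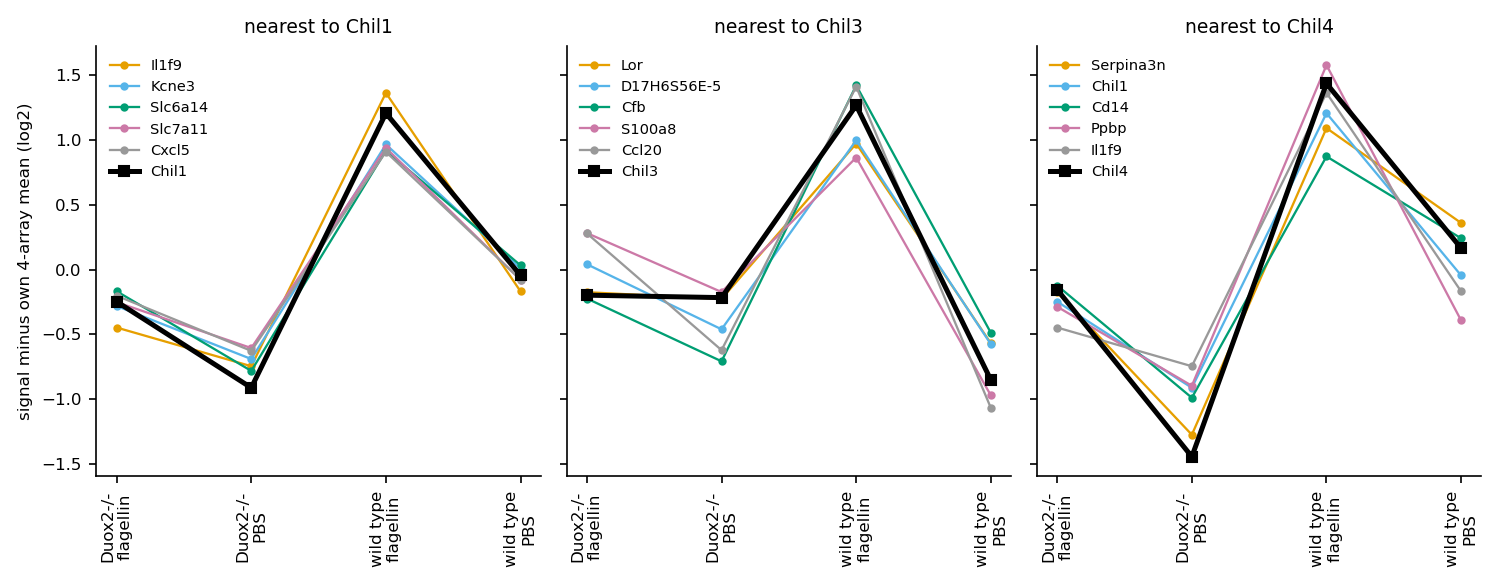
Signal minus the gene's own mean over the 4 arrays, on the log2 scale, for Chil1, Chil3 and Chil4 in black and the 5 genes with the smallest distance to each in colour. Each black line peaks in the wild-type flagellin array, and the lowest point of Chil3 is wild-type PBS, while that of Chil1 and Chil4 is the PBS array labelled Duox2-/-.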

How the data were processed

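The authors deposited log2 values made with RMA in Affymetrix Expression Console 1.1, per the submitters' processing notes. RMA subtracts background, is meant to set the arrays to 1 distribution and reduces every probe set to a single value. The deposited values still differed in spread. Their interquartile range was 2.43 and 2.54 in the flagellin and PBS arrays labelled Duox2-/- and 2.73 and 2.79 in the wild-type flagellin and PBS arrays. No source used here states the genome build of the probe sets. Of 35556 probe sets, 21789 were paired with 1 gene, 1621 with several and 12146 with no listed gene. Symbols were updated through gene IDs. The probe set with the highest mean stood for a gene, and 12471 of 19938 genes reached the median of all values, 6.52, in at least 1 array. Differences of log2 values were called at 2-fold, with no test. The calling step was run on simulated data with shifts set well past the cut, which checks the code and not the calls made here. Of 166 memberships of 17 gene lists, 157 were matched; the others were not analysed here. The 5 genes, the lists and the rules were chosen with earlier results of these data known, and the motifs after the values were seen. The rule named the 5 genes, the other family members, Duox2, up to 4 genes of a list by the 2 highest and 2 lowest differences of the comparison described, and the 5 genes nearest in pattern, without small RNAs, predicted genes, odorant or pheromone receptors, or antigen receptor segments. Hexa, Ly6g, Epx and Pifo fall outside it, as do Il4, Il13ra2, Tmem219 and Stab1 for the comparisons in which they are described, and these were chosen after their values were seen. Promoters are from RefSeq, GRCm38.p6, and were aligned with Biopython 1.88. Alternatives used limma 3.58.1 in R 4.3.3; the rest ran in Python 3.11.15 (numpy 2.4.6, pandas 2.3.3).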

Additional observations from a re-analysis of the deposited data

Results flagged for a closer look

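Chil3 had genotype differences of opposite sign in the flagellin and PBS arrays: the array labelled Duox2-/- was below wild type after flagellin, at -1.46, and above it under PBS, at 0.63. The difference between these values was not tested, since each group had 1 array. Chil3 was under 6.52 in every array but wild-type flagellin, so both signals behind its PBS value were dim. Chil5, dim in all 4 arrays, had responses to flagellin of -0.24 in the arrays labelled Duox2-/- and 0.087 in wild type, and genotype differences of -0.15 after flagellin and 0.18 under PBS, also not tested. Chil6 had flagellin responses of 0.0017 in the arrays labelled Duox2-/- and -0.036 in wild type, both near 0 and not tested.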

How the results depend on the processing

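Centring each array on its median, quantile renormalisation, cyclic loess and averaging the probe sets of a gene left the number of the 5 genes past 2-fold as it was in all 5 comparisons. Averaging cannot alter these genes, which had 1 probe set each. Of 100 recomputed differences 97 kept their direction and side of 2-fold, a count that includes the averaged values, which could not change. The 3 others were values near 0 in the flagellin response of the arrays labelled Duox2-/- that turned sign: Chil3 to -0.0001 after quantile renormalisation and -0.01 after cyclic loess, and Chit1 to -0.02 after cyclic loess. Over these settings the response of Chil4 lay between 1.29 and 1.41 in the arrays labelled Duox2-/- and between 1.25 and 1.28 in wild type, and that of Chil3 in wild type between 1.97 and 2.12.

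The number of ranked genes past 2-fold depended on the filter. For flagellin against PBS in the arrays labelled Duox2-/- it was 85, against 47 with a filter on the mean, 514 at 1.5-fold and 137 with no filter. In wild type it was 122, against 68 with a filter on the mean and 365 at 1.5-fold. For Duox2-/- against wild type it was 250 after flagellin, against 1386 at 1.5-fold, and 176 under PBS, against 88 with a filter on the mean, 638 at 1.5-fold and 312 with no filter. For the difference of responses it was 197, against 118, 884 and 318 at these 3 settings. No paired analysis was possible because each group has 1 array and the labels give no replicate numbers. With 1 array per group, animal, dissection and array cannot be told apart from genotype or treatment. Signals under 6.52, as those of Chit1 in all arrays and of Chil3 in all but wild-type flagellin, carry less information on differences. With a mean of 6.48 over the 4 arrays, Chil3 would not be ranked under the filter on the mean.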
